A study of Drosophila melanogaster with 4 samples.

Results

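The euchromatic arm of 3R is the right arm of the third chromosome of Drosophila melanogaster beyond its centromere-proximal 3 Mb, positions 3000001 to 27905053 of FlyBase release 5. Its members were the regions of the replicate-set list that lay on 3R and started above 3000000, and 1520 of the 11476 regions of that list met this rule. Of these, 1519 were marked as enriched and 1 as depleted. The regions came from chromatin immunoprecipitation followed by sequencing (ChIP-seq) of Su(var)3-7 with the antibody Q3448, on nuclei from third-instar larvae of Oregon-R, a wild-type strain. There were 2 ChIP libraries and 2 input libraries, 1 input per ChIP library, all of the same strain, genotype and stage. The labels name neither the tissue nor the sex of the larvae, and they do not say whether the replicates came from separate collections of larvae, so the spread between replicates may be technical.

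Su(var)3-7 is a zinc-finger protein that binds HP1, and both are dosage-dependent components of the silencing that heterochromatin imposes on nearby genes. Most of it is found at the pericentric chromocentre, on chromosome 4 and at telomeres of polytene chromosomes. The gene-rich arms are therefore the part of the genome in which its sites lie outside classical heterochromatin. A cluster here is a region that the authors called as enriched in ChIP over input, and its value is their log2 enrichment.

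Su(var)3-7 clusters of euchromatic 3R were mostly narrow and low in value, as on the euchromatic parts of 2L and 3L (those arms without their proximal 3 Mb). The 1519 enriched members made up 13.2% of the enriched list, or 61.0 per Mb over 24.9 Mb, and covered 12.5% of the arm. Euchromatic 2L held 67.0 and 3L 74.2 per Mb. Their median log2 value was 0.42, which is 1.34-fold over input, with a middle range from 0.37 to 0.47. Their widths ran from 1001 to 19763 bp with a median of 1600 bp. Medians on 2L and 3L were 0.42 for both and 1675 and 1664 bp. A width of 5 kb or more was reached by 68 members (4.48%), against 11.8% of the whole list, 6.04% on euchromatic 2L and 5.69% on 3L. A log2 value of at least 1 was reached by 35 members (2.304%), against 15.3% of the whole list, 1.79% on 2L and 1.94% on 3L. Most of the distance to the whole list, which takes in heterochromatin, was thus common to the 3 arms.

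Support by replicate divided the members. Clusters of both replicates overlapped 313 members by at least 1 bp, or 20.6%, against 30.7% of the whole list. The 95% exact binomial interval of this 20.6%, 18.6 to 22.7%, holds counting error only. It treats members as independent although they are grouped along the arm. It is therefore neither a measure of replicate spread nor a test against the whole list. Clusters of 1 replicate overlapped 430 members (28.3%, against 25.3% of the whole list), of which 242 met replicate 1 and 188 met replicate 2. The remaining 776 members (51.1%) overlapped a cluster of neither replicate, against 44.1% of the whole list, 50.6% on euchromatic 2L and 50.3% on 3L. How the replicate set was formed is unknown, and the shares are not taken as independent evidence of binding. The share found in both was 33.0% when clusters under 2 kb were dropped from the replicate set and from the replicate lists alike. It was 33.6% among members whose value occurs once in the list, with the replicate lists left whole. Support by width with whole replicate lists is given below.

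The members found in both replicates were wider and higher in value. Their median width was 3197 bp and their median log2 value 0.55, or 1.46-fold over input. Members found in 1 replicate had medians of 1884 bp and 0.40, and those found in neither 1216 bp and 0.41. The members found in both held 38.8% of all member bases. Among the 68 members of 5 kb or more, 62 were found in both, 6 in 1 and 0 in neither. Among the 776 found in neither, 470 were narrower than any cluster of the whole replicate lists. On the arm itself, the narrowest replicate cluster spanned 1301 bp.

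Support rose with width, but unevenly. It was 1.73% for the 1040 members under 2 kb, 46.6% for the 262 members of 2 to 3 kb, 74.5% for the 149 members of 3 to 5 kb and 91.2% for the 68 members of 5 kb or more. The step lay at 2 kb. Of 213 members of 1.7 to 2 kb, 16 were found in both and their highest log2 value was 1.42, in a member found in neither. Of 126 members of 2 to 2.3 kb, 63 were found in both, and 8 of those 63 had a log2 value of at least 1. The next band, 2.3 to 2.6 kb, held 62 members, 30 of them found in both. The step was not particular to 3R: elsewhere in the list 10.3% of 1266 clusters of 1.7 to 2 kb and 40.1% of 784 clusters of 2 to 2.3 kb were found in both. A wider cluster also meets the overlap rule more easily by its width alone. These bands were chosen after the values had been seen.

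**Figure D1:**
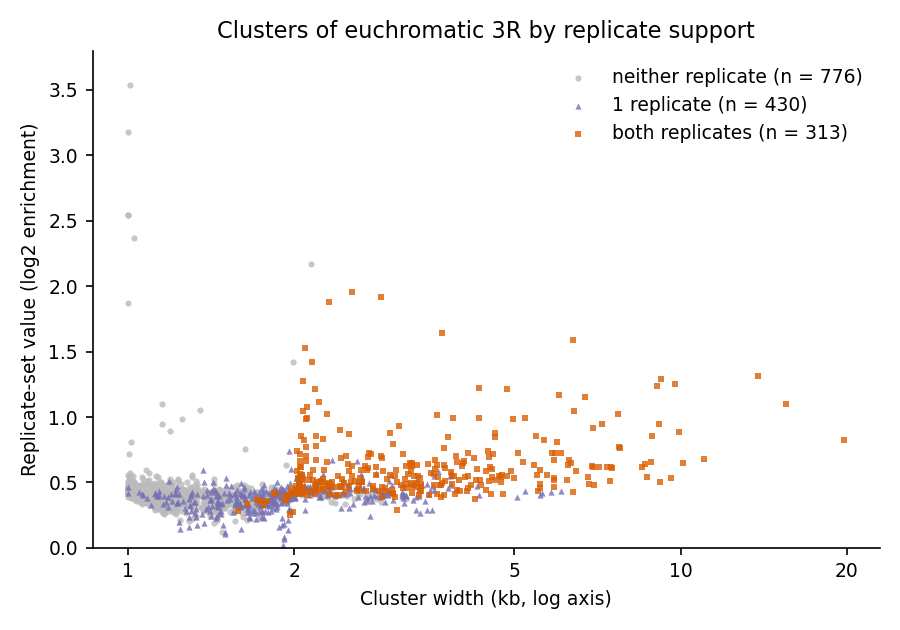
Each point is 1 of the 1519 enriched members, with its width in kb on a log axis and its replicate-set value in log2 enrichment. Members found in both replicates (squares) begin near 2 kb, where a column of narrow high-value sites stands, and they make up 62 of the 68 members of 5 kb or more, while those found in neither (circles) crowd below 1.5 kb and also hold the highest values.

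The strongest sites found in both replicates were spread over the whole arm. The highest lay near the distal end at 3R 26885785 to 26888322, with a log2 value of 1.96 (3.89-fold over input). It was matched by 1 cluster in each replicate, at 1.80 in replicate 1 and 2.38 in replicate 2. The second lay further out, at 3R 27282801 to 27285672, with 1.91 in the replicate set and 1.93 and 2.12 in replicates 1 and 2. The third was mid-arm at 3R 12623326 to 12625634, with 1.88 in the replicate set and 1.59 and 2.14 in the replicates. All 3 were under 3 kb wide, and clusters of each replicate covered at least 84.04% of each.

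The other 7 of the 10 highest had replicate-set values from 1.64 down to 1.28. At 3R 22013539 to 22017241 the replicate-set value was 1.64, with 1.35 in replicate 1 and 2.45 in replicate 2, which was the widest gap between the replicates among the 10. Near the proximal limit, 3R 3632391 to 3638771 had 1.59, with 1.57 and 2.35, and 3R 3520857 to 3530084 had 1.29, with 1.39 and 1.16. The latter was the only one of the 10 with a lower value in replicate 2. Narrow sites of about 2.1 kb lay at 3R 19546844 to 19548936 (1.53, with 1.08 and 1.87), 3R 17444114 to 17446262 (1.42, with 1.28 and 1.58) and 3R 17918828 to 17920903 (1.28, with 0.80 and 1.68). The remaining site, 3R 12076126 to 12089931, was also among the widest, at 13.8 kb with a value of 1.31. It was 1 cluster at 1.25 in replicate 1 and 3 clusters with up to 1.88 in replicate 2.

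The 5 widest members had log2 values from 0.65 to 1.31, above the middle range of the members, and each was divided in at least 1 replicate. The widest spanned 19.8 kb at 3R 13523335 to 13543097 with a log2 value of 0.82. Clusters of replicate 1 covered 96.3% of it in 2 pieces and those of replicate 2 covered 96.5% in 3 pieces, at up to 0.91 and 0.83. The next, 3R 21824427 to 21839960, spanned 15.5 kb at 1.10 and reached 1.20 and 1.18 in replicates 1 and 2. The third was the site of 13.8 kb given above. The fourth, 3R 27506212 to 27517230 (11.02 kb, 0.68), and the fifth, 3R 8466037 to 8476143 (10.1 kb, 0.65), had replicate values from 0.74 to 0.83. For 4 of these 5 the replicates lay within 0.09 of each other on the log2 scale, whereas at the 10 highest sites they differed by 0.19 or more.

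The highest values of all belonged to members that no replicate list contained. 3R 23999742 to 24000750 had a log2 value of 3.54 over 1009 bp, and 3R 23552906 to 23553906 had 3.18 over 1001 bp. 3R 3870857 to 3871857 and 3R 27714530 to 27715530 tied at 2.54, each over 1001 bp. Each of these 4 values recurred exactly, to 10 decimals, elsewhere in the list, at 12, 6 and 9 clusters in all. Of the 13 members with a log2 value of at least 1.5, 6 were found in both replicates and 7 in neither, and 6 of those 7 had a recurring value. Of the 35 members at or above 1, 25 were found in both replicates, 10 in neither and 0 in exactly 1.

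Recurring values were common on the arm as a whole. They were held by 739 members (48.7%), against 42.8% of the whole list, 46.2% on euchromatic 2L and 45.5% on 3L. Among members found in neither replicate the count was 516 (66.5%, against 65.2% of such clusters in the whole list), and among those found in both it was 51 (16.3%, against 11.7%). The commonest value, 0.37, was shared by 32 members, 23 of them found in neither replicate, and by 157 clusters of the whole list. The number of reads behind a value is unknown, and its part in the recurrence was not tested.

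The replicate lists held like numbers of clusters on the arm, and replicate 1 covered 1.17-fold the bases of replicate 2. Replicate 1 held 597 clusters over 1.42 Mb, or 5.68% of the bases, and replicate 2 held 556 clusters over 1.21 Mb, or 4.85%. Their mean was 5.27% ± 0.59 (SD, n = 2). It was 1.92% for clusters at or above the median value of their list and 3.26% for clusters of at least 2 kb, against 12.5% in the replicate-set list. Median widths were 1921 and 1936 bp and median log2 values 0.60 and 0.61. Clusters of both lay over 0.742 Mb, which was 39.4% of the 1.88 Mb under either.

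Of the clusters of replicate 1 on the arm, 333 (55.8%) overlapped one of replicate 2, against 69.4% in its whole list. Of those of replicate 2, 344 (61.9%) overlapped one of replicate 1, against 74.2% in its whole list. The shared clusters were higher in value in each list. The medians were 0.64 for shared and 0.57 for the other 264 clusters in replicate 1, and 0.65 and 0.55 for the other 212 in replicate 2. The difference averaged 0.09 ± 0.02 (SD, n = 2) on the log2 scale, and 0.14 among clusters at or above the median value of their list. With 2 replicates, 0.5 is the smallest two-sided p that an exact permutation test allows, and neither this nor any other difference below was tested. Median widths were 2190 bp against 1573 bp in replicate 1 and 2070 bp against 1594 bp in replicate 2.

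The replicate values followed each other loosely over the 286 one-to-one overlapping pairs of clusters on the arm. Pearson's r was 0.67 and Spearman's rho 0.41, as descriptions across clusters of the same 2 libraries. Replicate 2 had the higher value in 172 pairs (60.1%), against 55.8% of all pairs of the genome. The median difference was small, at 0.03, but the tails were unequal. Replicate 2 was higher by more than 0.5 in 22 pairs and replicate 1 in 1. A log2 value of at least 1 was reached by 19 of these clusters in replicate 1 and 35 in replicate 2, and by both in 13 pairs. Among the 158 pairs with both clusters under 2.5 kb, replicate 2 was higher in 112, with medians of 0.57 and 0.62. Among the 5 pairs with both clusters of 5 kb or more it was higher in 1, with medians of 1.06 and 0.94.

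**Figure D2:**
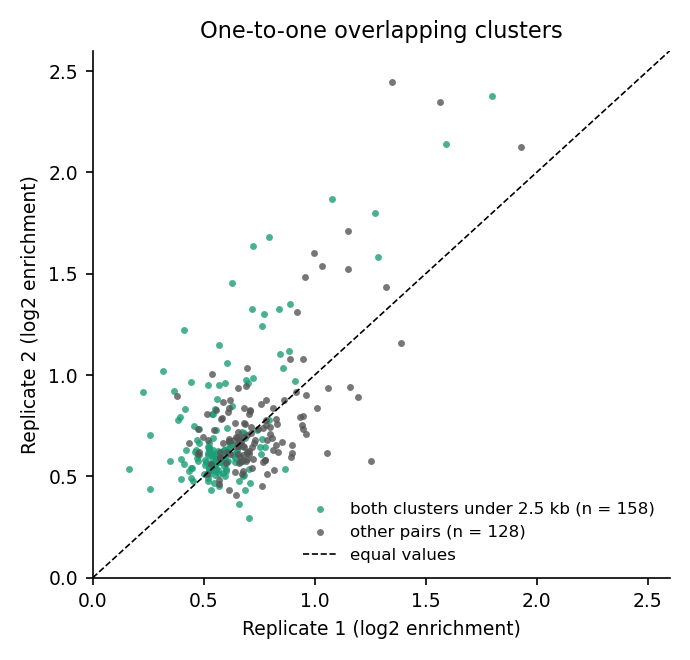
Log2 enrichment in replicate 1 (horizontal) and replicate 2 (vertical) of the 286 clusters that overlapped one to one on euchromatic 3R, with the dashed line at equal values. The high-value points lie mostly above the line, and 22 pairs exceed it by more than 0.5 against 1 pair below it by as much, while pairs with both clusters under 2.5 kb (green) are above the line in 112 of 158.

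Members found in both replicates mostly matched 1 cluster in each. This held for 258 of the 313, while 55 were divided into 2 or 3 clusters in at least 1 replicate. At the median 84.0% of such a member lay under clusters of replicate 1 and 76.3% under those of replicate 2, and 249 were at least 50% covered in each. The replicate-set value lay below the values of both replicates in 205 of the 313, between them in 108 and above both in 0.

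Cover varied several-fold along the arm. In 25 consecutive windows of 1 Mb (the last shorter), the median cover was 3.98% in replicate 1 and 4.24% in replicate 2. The 3 most covered windows were the first 3 beyond the proximal limit. In replicates 1 and 2, clusters took up 12.7% and 9.86% of the window from 5000001 to 6000000, 13.01% and 8.78% of that from 3000001 to 4000000, and 12.8% and 8.91% of that from 4000001 to 5000000. The next window, from 6000001 to 7000000, dropped to 4.32% and 2.79%. The high cover next to the limit thus lasted for 3 windows. The nearest cluster outside the limit, 3R 2994359 to 3002453, was found in both replicates at 0.87, and the first member, 3R 3003742 to 3005517, was found in replicate 1 at 0.36.

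Beyond this shoulder the arm held separate covered stretches. The window from 12000001 to 13000000 was 9.81% and 8.55% covered and held 24 members found in both, 38.7% of its 62. The window from 7000001 to 8000000 was 10.7% and 6.97% covered. The distal 3 windows rose to between 5.25% and 7.87%, and members found in both made up 39.1% of those from 26000001 to 27000000 and 34.0% of those in the last window. The outermost member, 3R 27891601 to 27894474, was found in both replicates at a log2 value of 0.70, with 10.6 kb left to the end of the assembled arm.

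The least covered window ran from 15000001 to 16000000, with 1.90% and 1.39% of bases under clusters and 21 members, 5 of them found in both. It was followed by the window from 22000001 to 23000000 (2.56% and 2.69%) and that from 18000001 to 19000000 (2.598% and 2.69%). The lowest share found in both, 7.69%, was in the window from 16000001 to 17000000, with 4 of 52 members. Window cover in the replicates had Pearson's r of 0.95 and Spearman's rho of 0.89 over the 25 windows, as a description of 2 libraries. Median log2 values of the members in the windows stayed between 0.40 and 0.46, while their cover differed several-fold. These medians are of called regions only, by thresholds that are unknown, so they do not measure enrichment over a window.

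**Figure D3:**
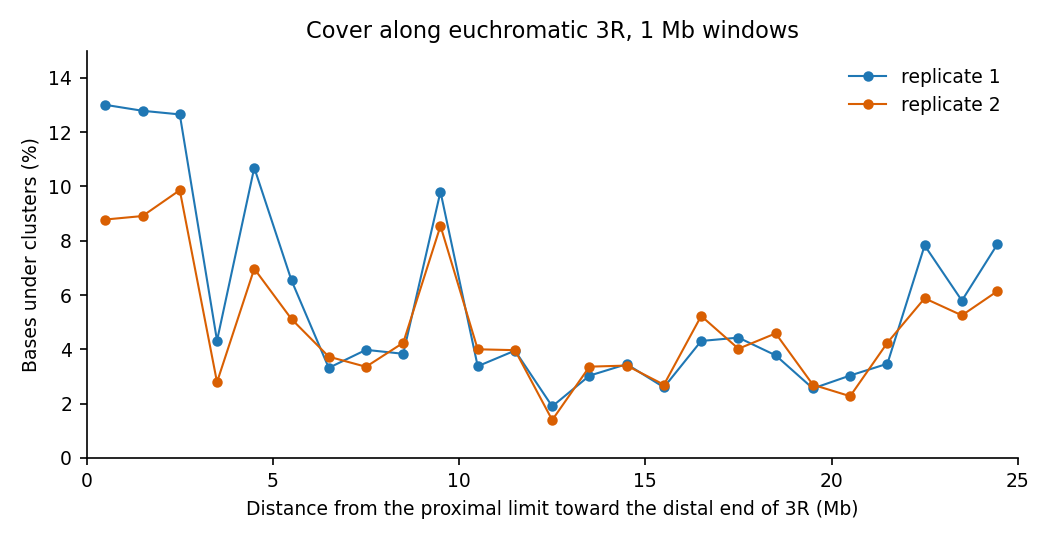
Percent of bases under clusters of replicate 1 and replicate 2 in 1 Mb windows, against the distance in Mb from the proximal limit toward the distal end. Cover is highest in the first 3 windows, at 12.7 to 13.01% in replicate 1 and 8.78 to 9.86% in replicate 2, falls to under 2% in both at its lowest, and rises again at the distal end.

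The difference between the replicates was not even along the arm. Over the 3 Mb from 3 to 6 Mb replicate 1 covered 12.8% and replicate 2 9.18%. From 6 to 13 Mb they covered 6.07% and 4.96%, from 13 to 25 Mb 3.32% and 3.49%, and from 25 Mb to the end 7.14% and 5.74%. The zones were drawn after the values had been seen. Replicate 1 was the more covered in the 3 zones with more cover, and replicate 2 slightly so in the sparse zone from 13 to 25 Mb. The 12 Mb from 13 to 25 Mb made up 48.2% of the length and held 27.2% of the members found in both, while the 3 Mb from 3 to 6 Mb made up 12.0% and held 26.2%. The value of a supported member did not follow the amount of cover. Its median was 0.53 from 3 to 6 Mb, 0.54 from 6 to 13 Mb, 0.56 from 13 to 25 Mb and 0.60 from 25 Mb on. Of the 25 members found in both with a value of at least 1, 3 lay in the zone from 3 to 6 Mb, 11 in the next, 8 in the third and 3 in the last. In the same order, the zones held 82, 95, 85 and 51 members found in both.

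Members were grouped rather than evenly spaced. The median distance between neighbours was 4193 bp, and 344 of 1518 neighbours (22.7%) were less than 1 kb apart, while 37 were more than 100 kb apart. When members less than 5 kb apart were joined, 703 groups resulted, of which 385 were single members and 67 held 5 or more, with 489 members among them. The largest group had 15 members over 60.4 kb at 3R 4830566 to 4890986, with 8 of them found in both, and 48.7% and 38.7% of it covered in replicates 1 and 2. The group at 3R 12023881 to 12089931, with 11 members over 66.1 kb, was 61.6% and 46.5% covered and ended in the site of 13.8 kb described above. Large groups were not always supported. The one at 3R 11149153 to 11188707 had 13 members of which 1 was found in both, with 27.8% of it covered in replicate 1 and 3.57% in replicate 2. Of the 313 members found in both, 59 stood alone in their group.

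The longest stretches without a member were 273.8 kb from 22087899 to 22361735, 260.4 kb from 6720350 to 6980750 and 246.3 kb from 23128254 to 23374524. The second held no cluster of either replicate. The first held 2 clusters of replicate 2 and the third 1 cluster of replicate 1, which the replicate-set list did not contain.

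Euchromatic 3R was then compared in cover with 2L and 3L, likewise without their proximal 3 Mb. It was the least covered of the 3 in each replicate. Euchromatic 2L was 6.51% and 5.56% covered in replicates 1 and 2, or 6.03% ± 0.67 (SD, n = 2), and euchromatic 3L was 7.60% and 6.28% covered, or 6.94% ± 0.93 (SD, n = 2). Relative to both together, cover of 3R was 0.81-fold ± 0.01 (SD, n = 2), at 0.80 in replicate 1 and 0.82 in replicate 2. The gap to 2L was about as large as the SD of either arm. That SD is between replicates, however, and replicate 1 was the more covered by 1.17-fold on both arms. Within each replicate 3R was below 2L, at 5.68% against 6.51% in replicate 1 and 4.85% against 5.56% in replicate 2. The difference was not tested, for the reason given above.

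The median value and width of the clusters differed less than their number. This did not hold for the share of replicate-set clusters of 5 kb or more, at 4.48% on euchromatic 3R, 6.04% on 2L and 5.69% on 3L. Median log2 values over the replicates were 0.61 ± 0.01 on euchromatic 3R, 0.60 ± 0.01 on 2L and 0.61 ± 0.0044 on 3L (SD, n = 2), and median widths 1929 ± 10.6 bp, 1939 ± 10.3 bp and 1922 ± 10.3 bp (SD, n = 2). Members found in both made up 20.6%, 21.9% and 22.3% of the replicate-set clusters of these 3 parts, and the bases shared by the replicates 39.4%, 41.6% and 41.6%. Replicate 1 was the more covered by a like factor on each, at 1.17, 1.17 and 1.21.

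Within 3R, the proximal 3 Mb were 25.2% covered in replicate 1 and 18.3% in replicate 2, or 21.8% ± 4.90 (SD, n = 2). Cover of the euchromatic arm was 0.25-fold ± 0.03 of that (SD, n = 2), at 0.23 and 0.26 in the replicates, and the levels did not overlap between the parts. Clusters of 5 kb or more made up 15.0% of the 353 proximal ones against 4.48% beyond, and 36.0% of them were found in both replicates against 20.6%. Median log2 values over the replicates were close, at 0.63 ± 0.02 and 0.61 ± 0.01 (SD, n = 2). The upper tails were less alike: a log2 value of at least 1 was reached by 4.82% of the proximal replicate-set clusters against 2.304% beyond.

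**Figure D4:**
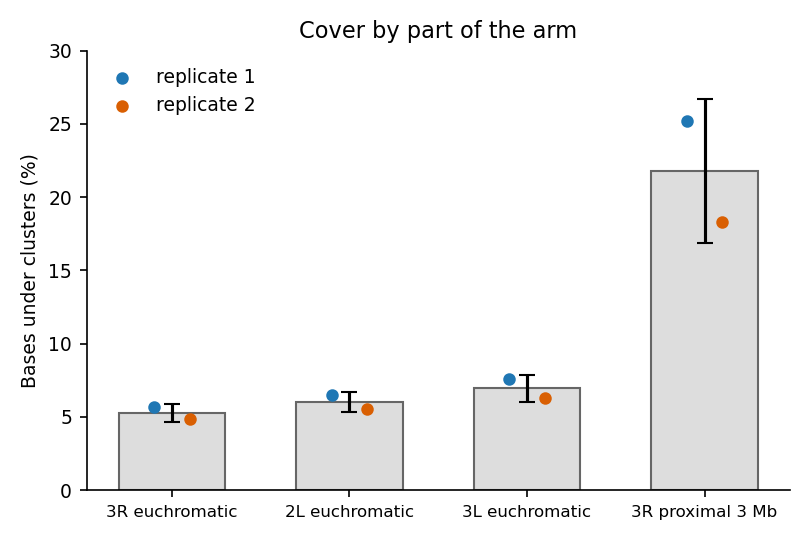
Percent of bases under clusters in the euchromatic parts of 3R, 2L and 3L and in the proximal 3 Mb of 3R. Bars are means of 2 replicates, error bars SDs and points the replicates: euchromatic 3R stands lowest at 5.27%, and the proximal part of the same arm highest at 21.8%.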

How the data were processed

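The authors deposited 3 lists of called regions, 1 per ChIP replicate and 1 of the replicate set, on FlyBase release 5 per the file headers. The submitters' processing notes name Bowtie 0.12.7 as a tool. Not given in the sources used here are the caller, its thresholds and how the replicate set was formed. The values of the deposited regions were taken as log2 enrichment over input, a scale inferred from values that recur exactly 1 apart. Values are the authors' and were used only to describe, rank or filter clusters. The lists hold no read counts, so the depth is unknown.

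Cover was the percent of bases under at least 1 cluster, by position. A member was found in a replicate when it overlapped a cluster of it by at least 1 bp, and a replicate value is the highest among those clusters. Euchromatic 2L and 3L exclude the 3 Mb next to their proximal ends. Regions named were the 10 highest found in both replicates, the 5 widest, the 3 most and least covered windows, the 3 longest empty stretches and the 3 highest found in neither. Members, rules and comparisons were chosen with earlier results of these data known. Alternatives changed the score, width, merging, proximal limit, list, overlap rule and replicates. Interval functions (Python 3.11.15, numpy 2.4.6, pandas 2.3.3, scipy 1.17.1) were tested on simulated data. Genes and sequences at these regions were not analysed here, because the gene table at hand is on release 6.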

Additional observations from a re-analysis of the deposited data

How the results depend on the processing

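Depth limits every value here in an unknown way, because the lists hold no counts, and no result has a test across samples. No paired analysis was possible because no result comes from a test to which a replicate block could be added; the ratios between parts were formed within each replicate. Replicate cover (5.27%) was 1.92% for clusters at or above the median value of their list, 3.26% for clusters of at least 2 kb and 12.5% in the replicate-set list; it ranged from 4.85% to 5.68% without either replicate. The overlap of the replicates (39.4%) was 38.5% for the higher-scoring clusters, 42.7% for those of at least 2 kb, 40.0% after merging within 1 kb, and 39.37% and 38.6% with limits of 2 and 5 Mb. The share found in both (20.6%) was 16.4% when 50% of the cluster had to be covered in each replicate and 23.4% after merging. It was 17.1% with only the higher-scoring clusters and 33.0% with only those of at least 2 kb. Both of these settings cut the replicate lists too, so a kept member could lose its counterpart. With whole replicate lists, 46.6% of members of 2 to 3 kb, 74.5% of those of 3 to 5 kb and 91.2% of wider ones were found in both. Of the 282 members with a log2 value of at least 0.5, whole replicate lists placed 201 in both, 31 in 1 and 50 in neither. The share was 33.6% among members whose value occurs once in the list, a setting chosen only after seeing the data. The excess in log2 value of shared clusters (0.09) was 0.14 for the higher-scoring clusters and ranged from 0.07 to 0.10 without either replicate. Cover relative to 2L and 3L (0.81) was 0.87 for the higher-scoring clusters, 0.76 and 0.86 with limits of 2 and 5 Mb and 0.83 by clusters per Mb, and ranged from 0.80 to 0.82 without either replicate. It stayed below 1 under all of these. Cover relative to the proximal part (0.25) was 0.17 for the higher-scoring clusters, 0.19 for those of at least 2 kb, 0.20 and 0.28 with limits of 2 and 5 Mb, 0.35 in the replicate-set list and 0.33 by clusters per Mb, and ranged from 0.23 to 0.26 without either replicate. Pearson's r of the pairs (0.67) was 0.70 for the higher-scoring clusters, 0.72 for those of at least 2 kb and 0.69 with a limit of 5 Mb. No direction turned under any of these alternatives. The cause of these moves was not tested, and this includes the loss of clusters that the higher-scoring and width settings impose.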

Other observations

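The 1 member marked as depleted lay at 3R 19684420 to 19686142, with a log2 value of -0.05 over 1723 bp. It overlapped no cluster of replicate 1, but replicate 2 listed an enriched cluster at 3R 19684416 to 19686132 with a value of 0.09, the lowest of its clusters on euchromatic 3R. An enriched member found in neither replicate lay 5184 bp before it, at 3R 19677250 to 19679235, with a value of 1.42. On euchromatic 3R, 11 of the 597 clusters of replicate 1 and 15 of the 556 of replicate 2 had no counterpart among the enriched clusters of the replicate-set list.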
